A study of Mus musculus with 2 samples.

Results

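Chemokines are small secreted or membrane-anchored proteins that guide the movement of leukocytes, and their receptors couple to G proteins on the cells that are guided. Inflammatory chemokines are made on demand by resident and infiltrating cells of an injured tissue, while homeostatic chemokines direct the steady traffic of lymphocytes and stem cells. Ligands and receptors pair with overlap, so 1 receptor may answer several ligands, and atypical receptors bind chemokines without the usual G protein signal. The genes described here are the mouse chemokines and chemokine receptors that a whole-genome array names as Ccl, Ccr, Cxcl, Cxcr, Cx3c, Xcl or Xcr. That choice rests on gene names alone and took 59 genes of 26194 named on the array, with 72 probes on 81 spots.

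The tissue was the gastrocnemius, the main calf muscle, of male C57BL/6 mice aged 9 weeks. In the cast group the hindlimb was held unloaded in plaster for 11 days, and control mice had no cast. RNA was pooled within each group, read here as 6 mice a pool, and each pool was hybridised to 1 Agilent array with Cy3 label, so each group is n = 1 array with no replicate, no test and no p-value. All differences describe these 2 pools after division by an array's own 75th percentile of signal, which was 486 on the cast array and 385 on the control array. Both arrays were on 1 slide with 1 scan time, so position on the slide and group cannot be told apart. All 8 muscle fibre markers listed for the tissue check were well above background on both arrays, among them Ckm, muscle creatine kinase, and Acta1, skeletal actin.

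Levels are given as scaled signals, on which the 75th percentile of an array is 100. A gene counted as measured if the scanner software flagged at least 1 probe of it well above background on both arrays, and its value is that of its brightest such probe. The lowest signal flagged was 4.23 on the cast array and 3.40 on the control array. Brightness also depends on the probe, so a level is compared between arrays and not between genes. For 259 probes printed on several spots, the log2 ratio had a median SD over spots of 0.10, and of 0.16 for the 65 dimmest, between 5.74 and 32.7 scaled units, where many chemokine genes lie. Differences between mice or between hybridisations are not in this SD. In whole muscle, fewer cells of a type and less RNA per cell cannot be told apart.

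Which chemokine and receptor transcripts differed in muscle held in a cast is the comparison the design allows. On each array 33 genes were well above background: 30 on both, 3 on the cast array alone, 3 on the control array alone, and 23 on neither, called dim from here on. Of all 26194 genes, 58.6% were well above background on both arrays and 36.1% on neither. Among measured genes the differences past 2-fold all ran towards the cast array and were held mainly by monocyte-attracting CC chemokines. Of the 30 measured genes, 4 were at least 2-fold higher in cast muscle (Ccl8, Ccl7, Ccl2 and Cx3cl1), against 2.24% of all 15347 measured genes, and 0 were at least 2-fold lower, against 2.09%. At 1.5-fold, 9 were higher, against 7.09% of all genes, and 2 were lower, against 8.2%. The median log2 ratio of cast over control was 0.11 over the 30 genes and -0.03 over all measured genes.

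**Figure D1:**
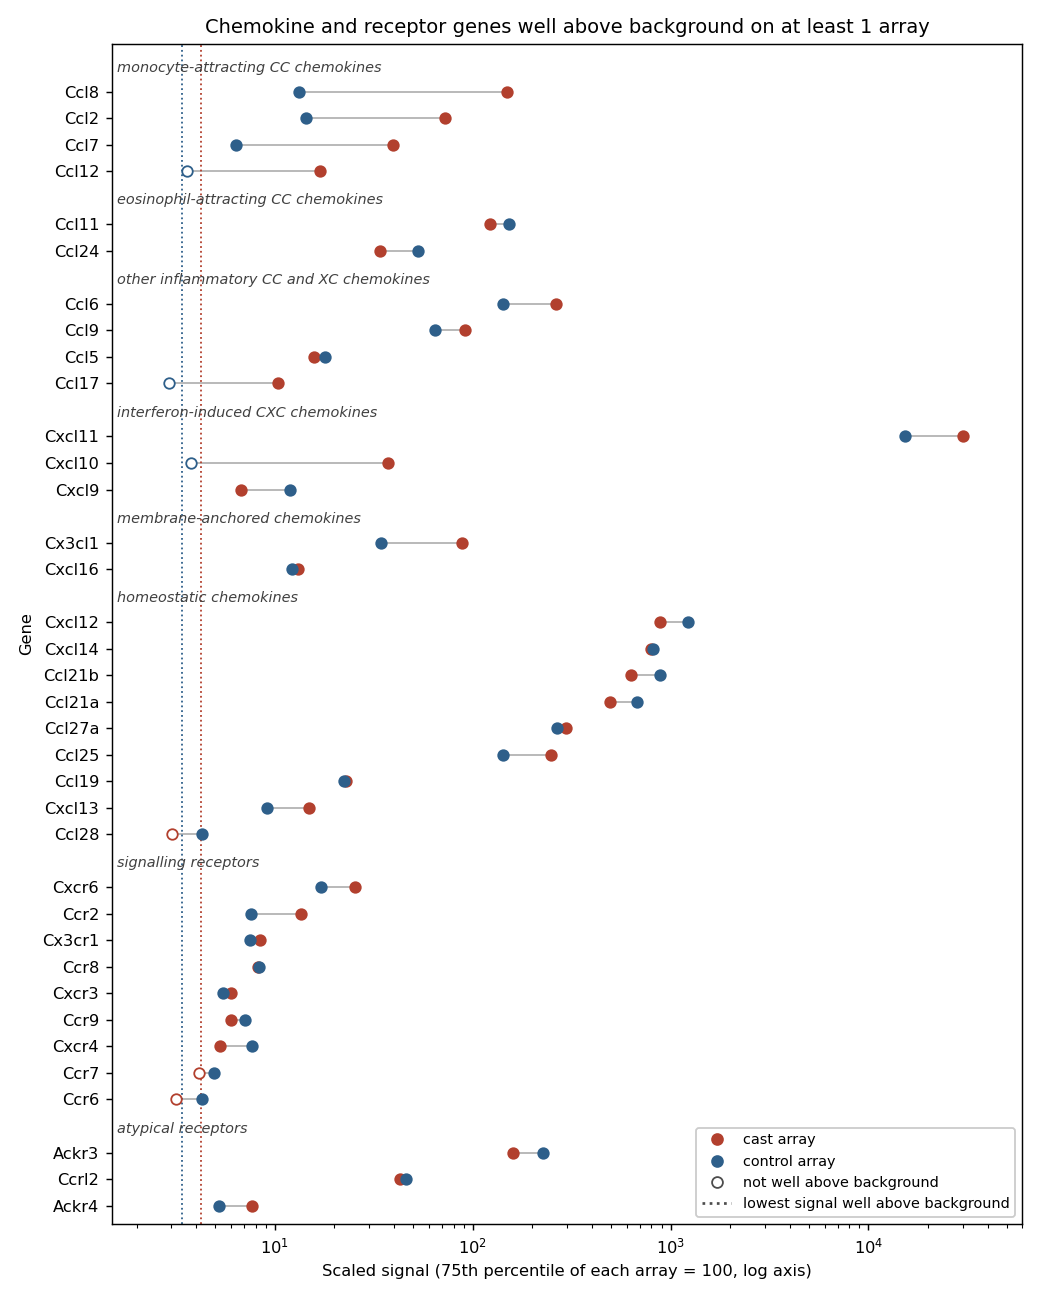
Scaled signal (log axis, 75th percentile of each array = 100) of the 36 genes well above background on at least 1 array, grouped by role, with cast in red and control in blue. Open points were not well above background, dotted lines mark the lowest signal that was (4.23 cast, 3.40 control), and the widest gaps are those of Ccl8, Ccl7, Ccl2, Ccl12 and Cxcl10.

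The monocyte-attracting group holds 4 genes, and every one of them was brighter on the cast array. Their products are close relatives, known as monocyte chemoattractant proteins. Ccl2, Ccl7 and Ccl12 act through the receptor Ccr2, and mouse Ccl8 is known as a ligand of Ccr8. Because the genes are related, the first 30 bases of each 60-base probe are shown, together with that of their neighbour Ccl11. The longest run of bases shared by any pair of the 5 whole probes was 8, so they are distinct sequences and no base is marked.

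Ccl2 probe: tgtaggagtgaccagtgtgacagtgaacta
Ccl7 probe: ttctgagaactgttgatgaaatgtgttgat
Ccl8 probe: accagaagtctcaaattctgcagccttgaa
Ccl12 probe: cctgaagttccccacgggcagtgtgatatt
Ccl11 probe: taggagtaactgaggataatagcagcttat

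The Ccl8 probe (mm9, chr11:81930108-81930167, plus strand) had a scaled signal of 149 in cast muscle and 13.2 in control muscle. That is 11.3-fold higher (log2 ratio 3.50), the largest difference among the 30 measured genes and rank 6 of all 15347 measured genes. Ccl7 (chr11:81860656-81860715, plus strand) had 39.5 in cast muscle and 6.39 in control muscle, a difference of 6.19-fold (log2 ratio 2.63) and rank 25. The control value of Ccl7 lies close to the lowest detectable signal, which makes its fold less certain than that of Ccl8.

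Ccl2 (chr11:81850650-81850709, plus strand), the best known monocyte attractant, is the gene with the firmest measurement because its probe is printed on 10 spots of each array. Its spots lay between 69.2 and 77.0 on the cast array, with a median of 71.7 and a mean of 72.3 ± 2.50 (SD over spots). On the control array they lay between 12.2 and 15.9, with a median of 14.5 and a mean of 14.3 ± 1.01. The spots of the 2 arrays did not overlap. The log2 ratio was 2.34, or 5.06-fold higher in cast muscle, with a spot-level SD of 0.12. With normexp background correction, which adds an offset of 50 to each signal, the log2 ratios were 2.50 for Ccl8, 1.09 for Ccl7 and 1.52 for Ccl2, still past 2-fold.

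**Figure D2:**
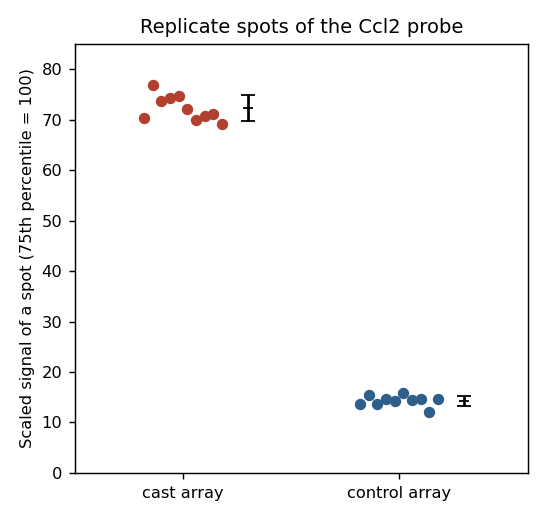
Scaled signal of the 10 replicate spots of the Ccl2 probe on the cast array (left) and the control array (right); bars give the mean and SD over spots. The cast spots sit between 69.2 and 77.0 and the control spots between 12.2 and 15.9, and this spread is that of spots and not of animals.

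Ccl12 (chr11:81916764-81916823, plus strand) was detected on the cast array alone, with 16.9 there and 3.59 on the control array. The plain ratio is 4.70-fold, and 1.70-fold with normexp correction. In all, 3 of the 59 genes were detected on the cast array alone (Ccl12, Ccl17 and Cxcl10), against 0.832% of all 26194 genes, and 3 on the control array alone, against 4.47%.

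The gene of the same chromosomal row that did not share this difference is Ccl11, eotaxin, which attracts eosinophils through Ccr3. In mm9 the probes run in the order Ccl2, Ccl7, Ccl11, Ccl12, Ccl8 and Ccl1 on chromosome 11. Ccl11 had a scaled signal of 123 in cast muscle and 153 in control muscle (log2 ratio -0.31), with a ratio above 0 only when the arrays were scaled on spike-in controls or not scaled. Ccl1 was dim on both arrays. The other eotaxin measured, Ccl24, had 34.1 in cast muscle and 53.1 in control muscle, 1.56-fold lower (log2 ratio -0.64). Ccl26 and the receptor Ccr3 were dim on both arrays.

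**Figure D3:**
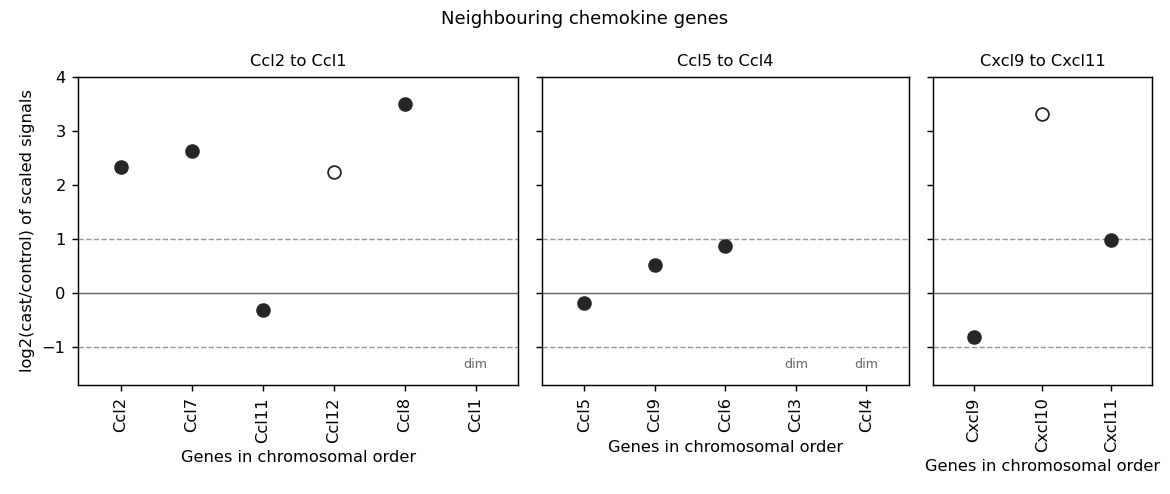
Log2 ratio of cast over control scaled signals for 3 rows of neighbouring chemokine genes, in chromosomal order; filled points were well above background on both arrays, open points on the cast array alone, dashed lines mark 2-fold and "dim" marks genes detected on neither. Ccl2, Ccl7, Ccl12 and Ccl8 lie above 2 and Ccl11, which sits among them, at -0.31. Cxcl10 lies at 3.31 between Cxcl9 at -0.82 and Cxcl11 at 0.98, the value of its brighter, shared probe.

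A second row on chromosome 11 holds Ccl5, Ccl9, Ccl6, Ccl3 and Ccl4, inflammatory chemokines, several of which act on Ccr1. None of these reached 2-fold. Ccl6, a chemokine of myeloid cells, had 263 in cast muscle and 143 in control muscle, 1.84-fold higher (log2 ratio 0.88). Its neighbour Ccl9 had 91.8 in cast muscle and 64.3 in control muscle (log2 ratio 0.51). Ccl5, an attractant of T cells, had 15.7 in cast muscle and 17.8 in control muscle, a log2 ratio of -0.18 that turned positive with spike-in scaling and with no scaling. Ccl3 and Ccl4 were dim on both arrays, as was Ccr1.

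Ccl17, which guides T cells through Ccr4, was detected on the cast array alone. Its probe lies on chromosome 8 (chr8:97335770-97335829, plus strand), in 1 row with those of Ccl22 and Cx3cl1. It had 10.4 in cast muscle and 2.93 in control muscle, below the lowest signal flagged there. Set against that lowest signal, the difference is 3.07-fold. With normexp correction the ratio of its signals was 1.38. Ccl22, the other Ccr4 ligand, and Ccr4 itself were dim on both arrays.

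Cx3cl1, fractalkine, is anchored in the membrane and binds Cx3cr1 on monocytes. Its probe (chr8:97306185-97306244, plus strand) had 88.8 in cast muscle and 34.5 in control muscle, 2.58-fold higher (log2 ratio 1.37). With normexp background correction its log2 ratio was 0.99, just under 2-fold. The second membrane-anchored chemokine, Cxcl16, had 13.0 in cast muscle and 12.2 in control muscle (log2 ratio 0.09), although with normexp correction the ratio was -0.05.

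The interferon-induced chemokines Cxcl9, Cxcl10 and Cxcl11 share the receptor Cxcr3 and lie side by side on chromosome 5, yet their probes did not move together. Cxcl10 (chr5:92775781-92775840, minus strand) was detected on the cast array alone, with 37.4 there and 3.77 on the control array, a plain ratio of 9.92-fold, and 2.80-fold with normexp correction. Cxcl9 had 6.74 in cast muscle and 11.9 in control muscle, 1.77-fold lower (log2 ratio -0.82). It was the lowest log2 ratio among the 30 measured genes. Its second probe was dim on both arrays. Cxcl10 and Cxcl11 overlap Art3, an ADP-ribosyltransferase gene, in the GRCm38 annotation. Art3 had 1797 in cast muscle and 1077 in control muscle (log2 ratio 0.74), and its part in the Cxcl10 and Cxcl11 signals was not tested.

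The brighter of 2 Cxcl11 probes had 30147 in cast muscle and 15278 in control muscle (log2 ratio 0.98). The dimmer had 318 in cast muscle and 353 in control muscle (log2 ratio -0.15), so the probes of this gene disagree. The brighter probe shares a run of 20 bases with 7 probes of other genes. A stretch of 30 bases of it is shown, with capitals for the 20 bases that recur most, in 6 other probes.

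Cxcl11 brighter probe: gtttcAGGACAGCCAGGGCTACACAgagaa

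All 7 of those other probes were measured, and their log2 ratios ran from -0.77 to -0.13, none of them above 0. The share of the Cxcl11 signal that comes from other transcripts was not tested. Its level and its log2 ratio of 0.98 are therefore uncertain. That ratio enters the 1.5-fold count and the median given for the measured genes.

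The receptor of these 3 ligands, Cxcr3, was near the detection limit, with 6.01 in cast muscle and 5.50 in control muscle (log2 ratio 0.13, and -0.12 with normexp correction).

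The reference tables held upstream sequences for 5 of the 7 genes that were at least 2-fold higher or detected on the cast array alone (Ccl8, Ccl12, Ccl17, Cx3cl1 and Cxcl10). In the 250 bases before the start of each gene (RefSeq, GRCm38.p6), 4 motifs were searched: the NF-kB consensus, AP-1 as TGANTCA and an interferon response motif as GAAANNGAA on both strands, and TATAAA on the gene's strand. These are the letters that factors known to drive inflammatory chemokines can bind. Of 32851 windows of that length, 3.90% held the NF-kB motif, 6.75% AP-1, 7.13% the interferon response motif and 7.59% TATAAA. Among the 5 genes, the first 3 of these motifs were found only in Cxcl10. Among the 45 windows of the other chemokine and receptor genes with an entry (39 genes, a few with several starts), 8 held the NF-kB motif.

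The 230 bases before Cxcl10 (GRCm38.p6, chr5:92348890-92349119, minus strand) are shown because they hold all 3. Capitals mark, in order, the interferon response motif 213 bases before the start, NF-kB motifs at 159 and 103 bases, and AP-1 at 74 bases.

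Cxcl10 upstream: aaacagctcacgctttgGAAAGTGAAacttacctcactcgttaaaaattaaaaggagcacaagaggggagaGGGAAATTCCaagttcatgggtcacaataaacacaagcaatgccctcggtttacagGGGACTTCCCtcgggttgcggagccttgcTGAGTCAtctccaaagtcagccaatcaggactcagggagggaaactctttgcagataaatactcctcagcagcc

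The 120 bases before Ccl8 (chr11:82115065-82115184, plus strand) and before Ccl12 (chr11:82101725-82101844, plus strand) are shown for comparison of these neighbours. Capitals mark TATAAA, 32 bases before the start in Ccl8 and 31 in Ccl12.

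Ccl8 upstream: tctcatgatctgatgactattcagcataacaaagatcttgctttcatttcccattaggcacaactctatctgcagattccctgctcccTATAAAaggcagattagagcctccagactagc
Ccl12 upstream: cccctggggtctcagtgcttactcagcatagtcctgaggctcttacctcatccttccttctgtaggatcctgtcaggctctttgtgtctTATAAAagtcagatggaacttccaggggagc

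Over their whole windows of 250 bases, Ccl8 and Ccl12 were identical at 150 of 230 aligned positions (65.2%). Cx3cl1 held TATAAA only 6 bases before its start, and Ccl17 held none of the 4 motifs. A match of letters is a description of the sequence and not a bound site.

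The 5 neutrophil-attracting CXC chemokines, Cxcl1, Cxcl2, Cxcl3, Cxcl5 and Cxcl15, were dim on both arrays, against 36.1% of all 26194 genes. So were their receptors Cxcr1 and Cxcr2. Of the listed neutrophil markers, 2, the calcium-binding S100a8 and S100a9, were at least 2-fold higher in cast muscle all the same. Their log2 ratios were 2.21 and 2.23, and 2.24% of all measured genes were at least 2-fold higher. Of the 8 neutrophil markers measured, 5 were above 0. Ly6g, a surface marker of mouse neutrophils, had a log2 ratio of -0.41, and the granule proteins Elane, Mpo and Camp had -0.54, 0.18 and 0.25. Retnlg had 0.84, and the granule proteins Ngp and Mmp8 were dim on both arrays. The summed scaled signal of that list was 5905 in cast muscle and 6722 in control muscle, most of it from the Csf3r probe.

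**Figure D4:**
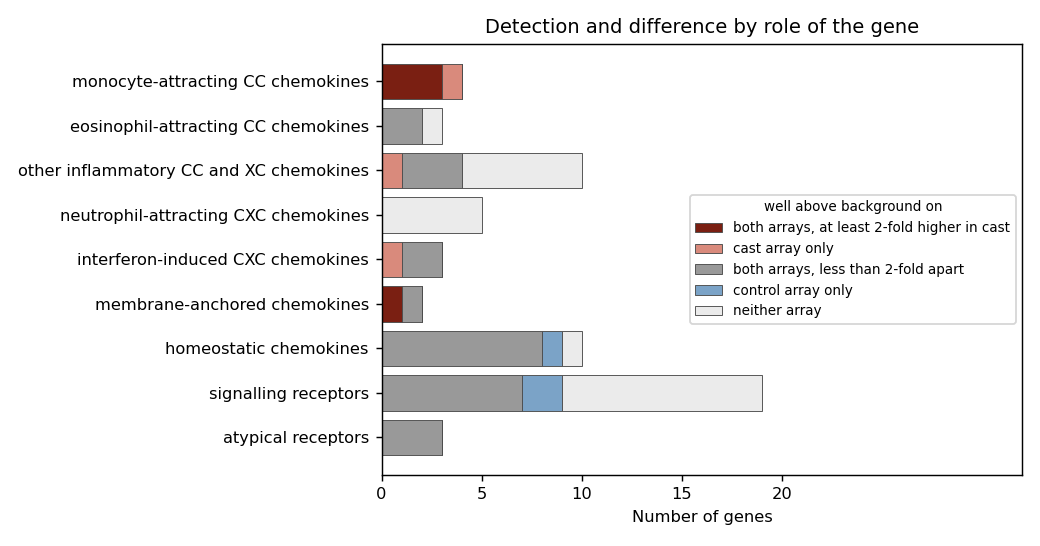
Number of genes in each role by detection: dark red, measured on both arrays and at least 2-fold higher in cast muscle; light red, detected on the cast array alone; grey, measured and under 2-fold apart; blue, control array alone; white, neither. The monocyte-attracting group has 3 genes past 2-fold and 1 on the cast array alone, and the neutrophil-attracting group has all 5 on neither.

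Homeostatic chemokines, 8 of 10 measured, showed no difference past 2-fold. That is near the share of all measured genes, of which 2.24% were at least 2-fold higher and 2.09% lower. The log2 ratios of these 8 ran from -0.49 to 0.81, with 4 on each side of 0 under 75th percentile scaling. The highest was Ccl25, a thymus and gut chemokine that binds Ccr9, with 249 in cast muscle and 142 in control muscle (1.75-fold, log2 ratio 0.81). Cxcl13, a B cell attractant, had 14.8 in cast muscle and 9.12 in control muscle (log2 ratio 0.70). Its receptor Cxcr5 was dim on both arrays.

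Cxcl12, which holds stem and progenitor cells in their niches, had 883 in cast muscle and 1228 in control muscle on its brighter probe (log2 ratio -0.48). Its second probe had 108 in cast muscle and 106 in control muscle (log2 ratio 0.04), so only the brighter one was lower. Its receptor Cxcr4 had 5.25 in cast muscle and 7.68 in control muscle (log2 ratio -0.55), and Ackr3, which binds and removes Cxcl12, had 159 in cast muscle and 227 in control muscle (log2 ratio -0.52). These 3 ratios stayed below 0 under every alternative tried. They are under 1.5-fold as given, while background-subtracted signals without surrogates gave -0.61 for both Ackr3 and Cxcr4, just past it.

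Of the ligands of Ccr7, which guides dendritic cells and T cells into lymphatic vessels, Ccl21a had 494 in cast muscle and 674 in control muscle (log2 ratio -0.45). Ccl21b had 628 in cast muscle and 882 in control muscle (log2 ratio -0.49). The probes of these near-identical genes share a run of at least 20 bases, so their signals cannot be told apart. Ccl19 had 22.8 in cast muscle and 22.2 in control muscle, and its 3 probes ranged from 0.03 to 0.12 in log2 ratio.

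Cxcl14 had 797 in cast muscle and 816 in control muscle (log2 ratio -0.03). Ccl27a, a ligand of Ccr10 that overlaps Il11ra1 in the annotation, had 297 in cast muscle and 265 in control muscle (log2 ratio 0.16), and its 4 probes ranged from -0.20 to 0.16. Ccl28, a second Ccr10 ligand, was detected on the control array alone, with 3.02 in cast muscle and 4.30 in control muscle. Set against the lowest signal flagged on the cast array, that difference is 1.02-fold. It is near 1 because the lowest flagged signal was higher on the cast array. Cxcl17 was dim on both arrays, as was Ccr10.

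Of the 19 signalling receptors, 7 were measured, 2 were detected on the control array alone and 10 on neither. Of all 26194 genes, 58.6% were measured on both arrays and 36.1% were detected on neither. Ccr2, the receptor of Ccl2, Ccl7 and Ccl12 on monocytes, had the highest log2 ratio of the 7, with 13.5 in cast muscle and 7.54 in control muscle (1.79-fold, log2 ratio 0.84, and 0.28 with normexp correction). Cxcr6, the receptor of Cxcl16, had 25.5 in cast muscle and 17.1 in control muscle (log2 ratio 0.57), and its second probe gave 0.39. It overlaps Fyco1, which had a log2 ratio of 0.32.

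Cx3cr1, the fractalkine receptor, had 8.41 in cast muscle and 7.46 in control muscle (log2 ratio 0.17), next to the 2.58-fold difference of its ligand. That Cx3cr1 probe shares a run of at least 20 bases with 1 probe of another gene, so its ratio is uncertain. The second Cx3cr1 probe was well above background on neither array. Ccr8 had 8.22 in cast muscle and 8.32 in control muscle (log2 ratio -0.02), next to the 11.3-fold difference of Ccl8. Ccr9, the receptor of Ccl25, had 5.99 in cast muscle and 7.04 in control muscle (log2 ratio -0.23, above 0 with spike-in scaling and with no scaling). None of the measured receptors was thus 2-fold apart. Of all measured genes, 2.24% were at least 2-fold higher and 2.09% lower, so none among so few receptors is near that share.

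On the control array alone, Ccr7 had 4.15 in cast muscle and 4.94 in control muscle, and Ccr6, the receptor of Ccl20, had 3.16 in cast muscle and 4.27 in control muscle. Set against the lowest signal flagged on the cast array, their differences are 1.17-fold and 1.01-fold. Ccl20 was dim on both arrays, and so were Xcl1, its receptor Xcr1, and Ccr1l1.

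Of the atypical receptors, Ackr4, which removes Ccl19, Ccl21 and Ccl25, had 7.67 in cast muscle and 5.24 in control muscle (log2 ratio 0.55, and 0.09 with normexp correction). It overlaps Acad11, which had a log2 ratio of -0.68. Ccrl2, which binds chemerin, had 42.7 in cast muscle and 45.9 in control muscle (log2 ratio -0.11, above 0 with spike-in scaling and with no scaling).

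Genes known to drive or relay chemokine transcription were examined as a list of 21, of which 14 were measured. Of these, 3 were at least 2-fold higher in cast muscle and 0 lower, against 2.24% and 2.09% of all measured genes, and the list's median log2 ratio was 0.38, beside -0.03 over all genes. Fos, an AP-1 subunit, had 351 in cast muscle and 46.1 in control muscle (log2 ratio 2.93). Nfkb2, the precursor of an NF-kB subunit, had 145 in cast muscle and 57.4 in control muscle (log2 ratio 1.33), and the receptor Tlr2, close to the 2-fold line, had 26.8 in cast muscle and 13.2 in control muscle (log2 ratio 1.03).

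Relb, the partner of the Nfkb2 product, had a log2 ratio of 0.67 and the AP-1 subunit Jun 0.58. The interferon-responsive factor Irf1 had -0.39 and Irf7 had -0.21. The cytokines Il1a, Il1b, Il6, Tnf, Ifng and Ifnb1, which induce chemokines, were dim on both arrays.

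Macrophage and monocyte markers did not show a difference of the size of the monocyte attractants. Of 10 measured, 0 were at least 2-fold apart, against 2.24% of all measured genes higher and 2.09% lower. That count is near the share over all genes. Of the 10 markers, 6 were above 0 and 4 below, with a median log2 ratio of 0.04. Their summed scaled signal was 4454 in cast muscle and 4701 in control muscle. Ly6c1 and Itgam carried most of that sum. Without Itgam it was 3501 in cast muscle and 3322 in control muscle, and without both it was 793 and 754. Adgre1, the F4/80 antigen, had a log2 ratio of -0.06 and Csf1r, the receptor that macrophages need to survive, had 0.01, whereas Lyz2 had 0.58 and Mrc1 had 0.50. The lowest of the list were Cd209f at -0.80, Itgam at -0.53 and Mertk at -0.34. Fcgr1 was detected on the cast array alone, and Cd68 and Cd163 were dim on both arrays. The part of cell numbers in the chemokine differences was not tested.

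**Figure D5:**
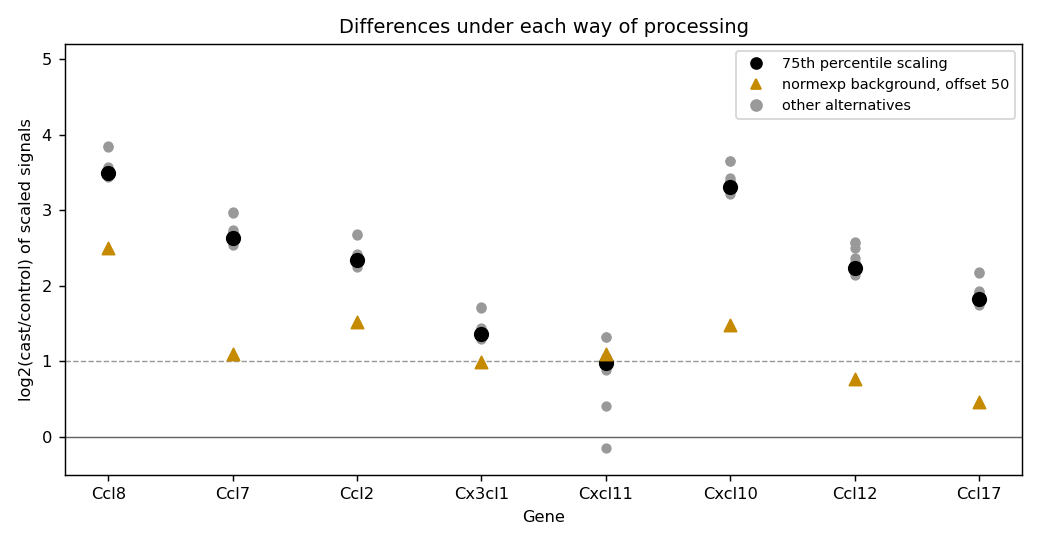
Log2 ratio of cast over control for 8 chemokine genes under each way of processing: black, 75th percentile scaling; triangles, normexp background with an offset of 50; grey, the other alternatives; the dashed line marks 2-fold. Ccl8, Ccl7 and Ccl2 stay above the line throughout, Cx3cl1 touches it at 0.99 with normexp, Cxcl11 ranges from -0.15 to 1.33, and Cxcl10, Ccl12 and Ccl17, detected on the cast array alone, are shown as measured.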

How the data were processed

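Each of the 2 RNA pools was measured on 1 Agilent 1-colour array. Per the submitters' processing notes, the deposited spot intensity comes from Agilent Feature Extraction 9.5, and per the file headers it is background-subtracted and detrended within the array, with a surrogate value for signals too close to background. A deposited table of the whole series holds that intensity divided by each array's 75th percentile and multiplied by 100, as found by comparison, with 54.9% of its values exactly whole, rounded from that value to within 0.50, so its low values are coarse. Its column medians were 8.70 for cast and 9 for control. Probe coordinates are on mm9, per the file headers, and exon or UTR positions were not determined here.

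From these files, control spots and spots flagged as non-uniform (9 on the cast array, 2 on the control array) were left out, the intensity was log2-transformed, spots of a probe were averaged, and each array's 75th percentile over non-control probes was subtracted. Of non-control probes, 56.7% were well above background on the cast array and 60.6% on the control array, by the flag on more than 0.5 of a probe's spots, and 0 were saturated. Probes were named through their accession (26055 of 39429 probes) in the RefSeq gene table of GRCm38, otherwise by the array's name, updated where it is an older synonym, and 68 of the 72 probes described were named by accession. Where a gene was detected on 1 array only, the bright value was set against the other array's lowest flagged signal or the dim probe's own (a plain ratio), whichever was higher. The lowest flagged signal is not a strict limit, since some unflagged probes lay above it. Genes at least 2-fold or 1.5-fold apart were counted. Every gene detected on at least 1 array is named with both signals, dim genes are named without a ratio (a few genes counted in the totals are not reported here by name), and of the other lists the genes at least 2-fold apart and the defining markers are named. The members and lists were chosen with earlier results of these data known. Alternatives were 12, plus 1 added after seeing the data (leaving out probes that share 20 bases with another gene's probe). Normexp, quantile and loess used limma 3.58.1 (R 4.3.3), and the rest Python 3.11.15 with pandas 2.3.3. The counting was tested on simulated data. The number of arrays limits the precision.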

Additional observations from a re-analysis of the deposited data

How the results depend on the processing

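Ccl8, Ccl7 and Ccl2 were at least 2-fold higher in cast muscle under all 13 alternatives, and Cx3cl1 under 12 of 13 (0.99 with normexp). The lowest log2 ratios of Ccl8, Ccl7 and Ccl2 were 2.50, 1.09 and 1.52, under normexp background correction. Each of these genes has 1 probe, which shares no run of 20 bases with another gene's probe. Alternatives that change only the detection filter, the averaging of probes or the shared-probe rule therefore could not move their ratios. Only the alternatives in scaling, background or source of the signal could do so. Cxcl11 (0.98 as reported) passed 2-fold under median and quantile scaling, giving 5 genes each, and under normexp, where it took the place of Cx3cl1 among 4. Of all genes, 2.67% were at least 2-fold higher with median scaling, 2.29% with quantile scaling and 1.24% with normexp. Spike-in scaling moved the median log2 ratio of all genes to 0.32 and no scaling to 0.31. Under these, 9 chemokine and receptor genes were at least 2-fold higher in each case (Cxcl11, Ccl6, Ccr2, Ccl25 and Cxcl13 joined), with medians of 0.46 and 0.45, which lie 0.14 above that of all genes, as in the values reported. All genes then split into 874 higher (5.69%) and 123 lower with spike-in scaling, and 847 (5.52%) and 125 with no scaling. Normexp gave a median of -0.024 for the chemokine and receptor genes (-0.052 over all genes), 191 genes higher and 153 lower over all, and plain ratios of 2.80 for Cxcl10, 1.70 for Ccl12 and 1.38 for Ccl17; its offset is added to both signals and so draws dim ratios towards 1. Background-subtracted signals without surrogates gave a median of -0.011 (-0.12 over all genes). Counting genes detected on at least 1 array gave 7 of 36 higher, with 463 higher (2.77%) and 546 lower of 16731 genes. The positive-and-significant flag gave 7 of 41, with 631 higher (3.09%) and 640 lower of 20402 genes. No filter on dim probes gave 7 of 59 and a median of 0.29 (0.047 over all genes). Of 26188 genes, 797 were then higher (3.04%) and 906 lower. In these 3 settings the additional genes were Cxcl10, Ccl12 and Ccl17. Without probes that share 20 bases with another gene's probe, Cxcl11 turned to -0.15 and the same 4 genes were at least 2-fold higher. With 1 array a group, no array could be left out. No paired analysis was possible because each group is 1 pooled array and no test was made. Signals near background limit the folds of Ccl7, Ccl12, Ccl17 and Cxcl10.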

Other observations

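Other genes that guide leukocytes are set here beside all measured genes, of which 2.24% were at least 2-fold higher in cast muscle and 2.09% at least 2-fold lower. Of 9 measured genes among other chemoattractants and their receptors, 1 was at least 2-fold higher in cast muscle, galectin-3 (Lgals3), a lectin that attracts monocytes, with 895 in cast muscle and 141 in control muscle (log2 ratio 2.66). Of 12 measured genes of leukocyte adhesion to the vessel wall, 0 were at least 2-fold apart, and Sele and Icam1 were dim on both arrays. Of 20 measured genes of signalling behind chemokine receptors, 1 was at least 2-fold lower, the receptor kinase Grk3, with 30.9 in cast muscle and 67.7 in control muscle (log2 ratio -1.13). Of 13 measured atypical receptors and chemokines under other names, 0 were at least 2-fold apart, the widest being Ackr1, which binds many inflammatory chemokines on venules, with a log2 ratio of 0.69.

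Markers of other cell types at least 2-fold apart were Col1a1 of fibroblasts (log2 ratio -1.76), Myh2 of muscle fibres (-1.38) and Cdh15 of satellite cells (1.35). Among T cell, B cell, NK cell, dendritic cell, mast cell, endothelial, lymphatic and pericyte markers, 0 were at least 2-fold apart among those measured. Of all measured genes, 2.24% were at least 2-fold higher and 2.09% lower. Cd3d, Cd8a, Ms4a1, Ncr1 and Prox1 were dim on both arrays. On the control array alone were 2 of 8 T cell, 3 of 6 B cell and 1 of 5 NK cell markers, against 4.47% of all genes. Of the endothelial markers 5 of 6 had a log2 ratio below 0 (median -0.42), and of the fibroblast markers 5 of 5 (median -0.68). So did 7 of 8 muscle fibre markers (median -0.24) and 4 of 5 mast cell markers (median -0.13). Spike-in scaling and no scaling raise every ratio, with medians over all genes of 0.32 and 0.31. The second Cx3cr1 probe read 4.72 on the cast array and 0.825 on the control array and was well above background on neither, so it gives no ratio.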
